A study of Mus musculus with 12 samples.

Results

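The genes described here are 7 genes by which the primitive endoderm is recognised: Gata4, Gata6, Sox17, Sox7, Pdgfra, Dab2 and Sparc. They were chosen by name, and each was found once among the 51467 genes of the deposited count table by its GENCODE gene ID. The study compared mouse embryonic stem cells (ESCs), held in the naive state by serum, LIF and the 2i inhibitors (PD0325901, which blocks MEK, and CHIR99021, which blocks GSK3), with epiblast-like cells (EpiLCs) collected about 56 h after LIF and 2i had been taken off the same cells. Both cell types came, by the study's methods, from a single reporter line (miR290-mCherry and miR302-GFP, in V6.5 ESCs), and both received 500 µM 4-thiouridine (4sU) for 30 min. Each cell type gave 3 libraries of captured 4sU RNA (nascent RNA) and 3 of total RNA depleted of ribosomal RNA, 12 libraries in 4 groups. By the labels, each labelled extract was divided to give the 4sU and the total RNA. The study calls its replicates biological; what set them apart (a culture, a passage or a day) is not given, and the p-values measure the spread between these libraries of 1 line.

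The primitive endoderm is the extraembryonic layer that separates from the epiblast in the inner cell mass of the blastocyst, and it later forms the visceral and parietal endoderm of the yolk sacs. FGF signalling through ERK favours this fate, with GATA6 acting early and GATA4, SOX17 and SOX7 following, while NANOG favours the epiblast. PDGFRA marks the forming lineage at the cell surface, and DAB2 and SPARC are made in quantity by its descendants. ESCs and EpiLCs both model the epiblast side of this choice. The question put to the 7 genes is how much of their RNA was present before and after the transition. Bulk counts do not show which cells made it.

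Levels are given as reads and as CPM, the usual count of reads relative to library size, with library sizes adjusted by TMM (the trimmed mean of M values) so that libraries can be compared. Gene counts summed to 3097693 to 5385644 reads in the 4sU libraries and to 9300845 to 21975684 in the total libraries. Of the 7 genes, 5 passed the filter of at least 3 CPM in at least 3 libraries that admitted 14731 genes to the test. The filter alone used CPM of the library totals before the TMM adjustment, so a library near 3 can lie on the other side of it in the CPM printed here. Gata6 and Sox7 had no library at 3 CPM. Sox17 passed through its 3 ESC 4sU libraries and Dab2 through its 6 EpiLC libraries, so these genes had to be high in one group to be tested at all; on the scale of the filter Gata4 reached the level in 10 libraries, Pdgfra in 3 and Sparc in 12. A change was called in the limma-voom fit where the adjusted p lay under 0.05 and the log2 fold change beyond 1 in either direction. Replicate 3 of the ESCs stood apart. On the third principal component, which held 2.26% of the variance, its 4sU library scored 42.0 where replicates 1 and 2 scored -9.9 and -11.7, and its total library scored 24.6 where they scored -24.8 and -22.6. The ESC total replicate 3 library was the highest of its 3 for 5 of the 7 genes (Gata4, Gata6, Sox17, Dab2 and Sparc), as it was for 43.2% of all genes tested. Values without the ESC replicate 3 libraries are given beside some results of the members, but not beside all, nor for every gene of the lists.

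In total RNA, 2 members rose in EpiLCs (Dab2 and Gata4), 1 fell (Sox17) and 2 were not called (Pdgfra and Sparc). Over all genes tested, 27.6% were called in this comparison, 16.3% higher and 11.2% lower. In nascent RNA, Dab2 rose, Sox17 fell and the other 3 were not called, where 25.5% of all genes were called, 11.9% higher and 13.5% lower. The median log2 change of the 5 tested members was -0.11 in total RNA, against 0.02 over all genes, and 0.41 in nascent RNA, against -0.09. With both ESC replicate 3 libraries left out, Dab2 and Gata4 were called higher in total RNA as well and Dab2 alone in nascent RNA, and Sox17 and Pdgfra were no longer tested. The 5 tested genes did not share a direction. The filter admitted Dab2 only through EpiLC libraries and Sox17 only through ESC 4sU libraries, so their opposite directions were largely set by it. In bulk RNA of this kind, fewer cells of a type and less RNA per cell cannot be told apart.

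**Figure D1:**
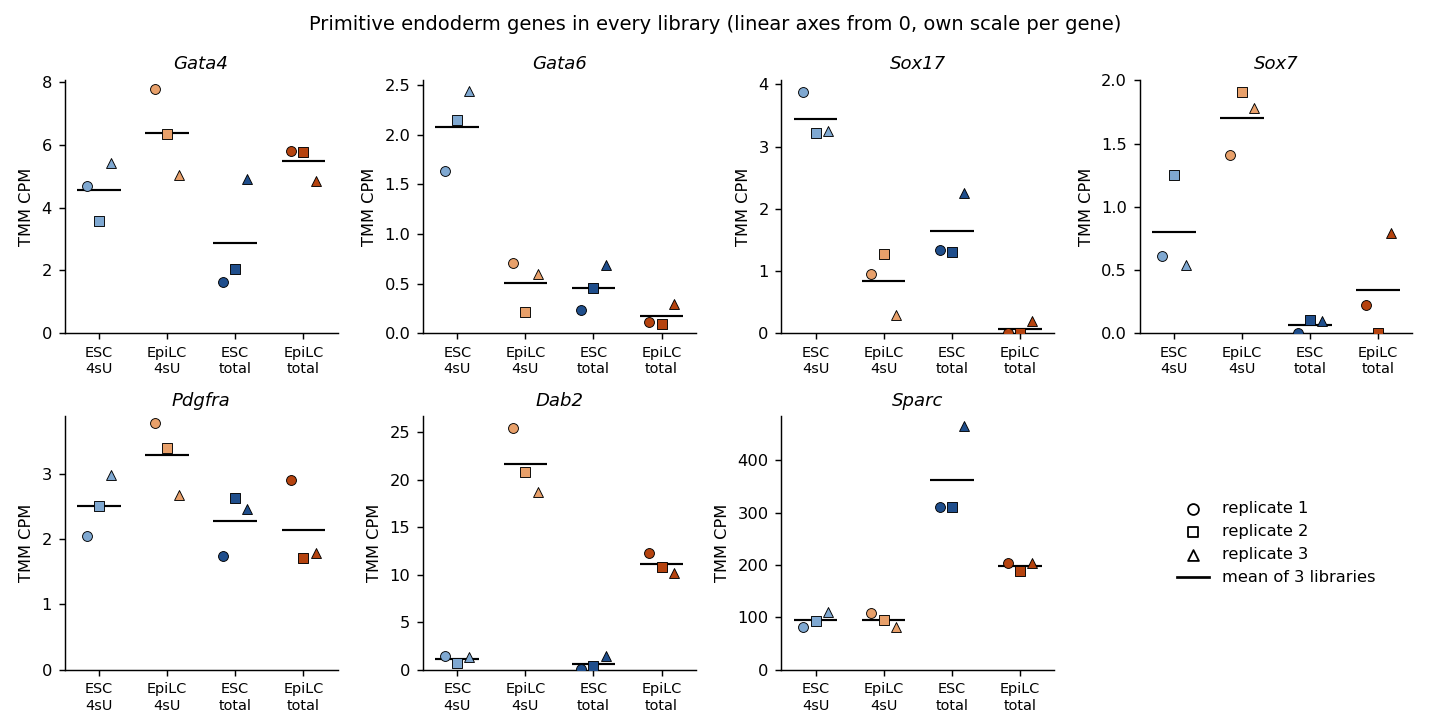
TMM CPM (vertical axes, linear from 0, a separate scale for each gene) of the 7 genes in the 3 libraries of each of the 4 groups, with a line at the mean of the 3. Dab2 lies between 10.2 and 25.4 CPM in the 6 EpiLC libraries and at 1.47 or below in the 6 ESC libraries, while Sox17 lies between 1.31 and 3.88 in ESCs and at 1.27 or below in EpiLCs.

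Gata6 (chromosome 18, 11052510 to 11085635, plus strand; coordinates here and below are mm10, from the deposited table) encodes the zinc finger transcription factor that comes first in the primitive endoderm. In nascent RNA it had 8, 12 and 9 reads in the ESC libraries (1.64, 2.15 and 2.44 CPM) and 3, 1 and 2 in the EpiLC libraries (0.707, 0.212 and 0.593 CPM). All 3 EpiLC libraries lay below all 3 ESC libraries; over all tested genes, the libraries of the cell types lay apart in one direction or the other for 60.7% in nascent RNA and for 68.6% in total RNA. The pooled reads gave an EpiLC to ESC ratio of 0.238 (exact 95% interval 0.0807 to 0.583, counting error only), and the exact two-sided permutation test gave p = 0.1, the smallest that 3 libraries against 3 allow. In total RNA the counts were 4, 9 and 7 in ESCs and 1, 1 and 3 in EpiLCs, with overlapping CPM and a ratio of 0.4 (0.117 to 1.1). Gata6 thus stayed out of the test; when no filter was applied, its nascent log2 change was -1.87 ± 0.53 (SE, limma-voom adjusted p = 0.0128), -1.74 ± 0.54 without ESC replicate 3 (limma-voom adjusted p = 0.02), and its total RNA change -1.17 ± 0.56 (limma-voom adjusted p = 0.113). A transcript on the opposite strand, 1010001N08Rik, overlaps its exons and had at most 1 read in any library.

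Gata4 (chromosome 14, 63198922 to 63245271, minus strand), the related factor that follows Gata6 and persists in visceral and parietal endoderm, was detected in every library. In total RNA it measured 1.62, 2.06 and 4.92 CPM in ESCs (28, 41 and 50 reads) and 5.8, 5.78 and 4.87 in EpiLCs (52, 61 and 49 reads). ESC replicates 1 and 2 lay below every EpiLC library, and ESC replicate 3 lay among them. Gata4 rose by 1.24 ± 0.29 in log2 (SE, n = 3 against 3; limma-voom adjusted p = 0.00156). The call rested on the fold threshold: without ESC total replicate 1 the change was 0.92 (limma-voom adjusted p = 0.0147), and DESeq2 gave 0.96. Without both ESC replicate 3 libraries it was 1.55. Nascent Gata4 measured 3.58 to 5.42 CPM in ESCs and 5.04 to 7.78 in EpiLCs, groups that overlapped, and its change of 0.53 ± 0.38 was not called (limma-voom adjusted p = 0.257).

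Sox17 (chromosome 1, 4490931 to 4497354, minus strand), an SRY-box factor of extraembryonic and definitive endoderm, was the member that fell. Total RNA held 23, 26 and 23 reads in ESCs (1.33, 1.31 and 2.26 CPM) and 0, 0 and 2 in EpiLCs (0, 0 and 0.199 CPM). Nascent RNA held 19, 18 and 12 reads in ESCs (3.88, 3.22 and 3.25 CPM) and 4, 6 and 1 in EpiLCs (0.942, 1.27 and 0.297 CPM). In both assays every EpiLC library lay below every ESC library, and 2 of the 3 EpiLC total libraries had no read. The fitted log2 change was -4.13 ± 0.58 in total RNA (limma-voom adjusted p = 2.01e-05) and -1.98 ± 0.53 in nascent RNA (limma-voom adjusted p = 0.00639). With 2 reads in all EpiLC total libraries, the ratio of ESC to EpiLC reads was known only to lie between 6.01 and 189.4 (exact 95% interval; estimate 22.5), against 3.88 (1.99 to 8.27) in nascent RNA. Without EpiLC total replicate 3, which held both of these reads, the total change was -4.89. Without any 1 of the ESC 4sU libraries Sox17 dropped under the filter and was not tested. With no filter and both ESC replicate 3 libraries left out, an alternative added after the data had been seen, the changes were -4.16 ± 0.52 and -1.95 ± 0.55 (limma-voom adjusted p = 2.43e-06 and 0.0102).

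Sox7 (chromosome 14, 63943674 to 63950732, plus strand), the SRY-box relative of Sox17 that appears late in the lineage, was the lowest of the 7 in ESC total RNA, with 0, 2 and 1 reads. The EpiLC total libraries had 2, 0 and 8. In nascent RNA it had 3, 7 and 2 reads in ESCs (0.613, 1.25 and 0.542 CPM) and 6, 9 and 6 in EpiLCs (1.41, 1.91 and 1.78 CPM), so that every EpiLC library lay above every ESC library. The pooled nascent ratio was 2.01 (0.945 to 4.48, exact permutation p = 0.1), and the total ratio was 5.33 (1.37 to 30.1) with overlapping libraries and 8 of the 10 EpiLC reads in 1 library. With no filter, limma-voom gave nascent 1.08 ± 0.70 (limma-voom adjusted p = 0.301) and total 1.32 ± 0.85 (limma-voom adjusted p = 0.249), while edgeR's quasi-likelihood test gave total 2.12 (edgeR adjusted p = 0.0477). The members of each pair of related factors therefore stood in opposite order: Gata4 and Sox7 had the higher nascent means in EpiLCs, Gata6 and Sox17 the lower ones. Whether the members of a pair differed in their change was not tested. Gata4 and Sox7 lie on the same chromosome, 698402 bases apart with 10 genes of the table between them.

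Pdgfra (chromosome 5, 75152292 to 75198215, plus strand) encodes the receptor for platelet-derived growth factors that is used to sort primitive endoderm cells. It measured 1.74, 2.62 and 2.46 CPM in ESC total RNA and 2.9, 1.71 and 1.79 in EpiLC total RNA, and 2.04, 2.5 and 2.98 in ESC 4sU against 3.77, 3.39 and 2.67 in EpiLC 4sU. The groups overlapped in both assays. The change was -0.11 ± 0.26 in total RNA (limma-voom adjusted p = 0.734) and 0.41 ± 0.36 in nascent RNA (limma-voom adjusted p = 0.347), and the exact intervals of the pooled ratios ran from 0.666 to 1.28 and from 0.836 to 2.18. These intervals cover counting error and not the spread between libraries.

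Dab2 (chromosome 15, 6386748 to 6440705, plus strand) encodes a clathrin adaptor that links cargo receptors of the LDL receptor family, among them megalin, to endocytosis, and it is needed in the visceral endoderm. It was the member that rose in both assays. RefSeq gives this gene 2 start sites, and their windows of 250 bases before to 50 after the start are shown because they differ in base composition and in the motif that GATA factors bind (RefSeq, GRCm38.p6). The window at the start of the deposited gene model (chr15:6386498-6386797, plus strand) holds 19 CpG dinucleotides, more than 71.9% of the 32851 windows of the same length. The distal one (chr15:6299539-6299838, plus strand) has its start site at -86959 from the gene start and holds 2 CpG. Capitals mark matches, on either strand, to the motif of the GATA family, spelled AGATAA or, with another first base, TGATAA, which 18.6% of all windows hold.
Dab2 gene-start window: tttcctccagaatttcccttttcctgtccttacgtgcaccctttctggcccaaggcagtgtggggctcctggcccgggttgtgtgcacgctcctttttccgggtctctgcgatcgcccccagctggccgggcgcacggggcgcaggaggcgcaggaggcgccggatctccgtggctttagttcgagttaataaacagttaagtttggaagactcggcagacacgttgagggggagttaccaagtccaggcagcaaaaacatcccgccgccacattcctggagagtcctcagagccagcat
Dab2 distal window: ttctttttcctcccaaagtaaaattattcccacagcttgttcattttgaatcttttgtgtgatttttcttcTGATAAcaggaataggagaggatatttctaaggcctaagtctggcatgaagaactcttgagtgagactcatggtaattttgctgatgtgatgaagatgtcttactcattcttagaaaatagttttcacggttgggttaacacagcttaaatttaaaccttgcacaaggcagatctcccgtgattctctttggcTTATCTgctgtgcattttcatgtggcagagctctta
The distal window holds TGATAA at -179 and AGATAA, on the minus strand, at +14 from its start; the gene-start window holds neither. No window of Dab2, Pdgfra or Sparc, the 3 members with promoter sequences here, holds ACAAT or ACAAAG (both strands), letters bound by SOX factors that 42.9% of all windows hold. A match is a description of the letters and was not tied to the counts, which do not separate the start sites.

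In total RNA Dab2 had 2, 7 and 15 reads in ESCs (0.116, 0.352 and 1.47 CPM) and 110, 114 and 103 in EpiLCs (12.3, 10.8 and 10.2 CPM). In nascent RNA it had 7, 4 and 5 reads in ESCs (1.43, 0.716 and 1.36 CPM) and 108, 98 and 63 in EpiLCs (25.4, 20.8 and 18.7 CPM). Every EpiLC library thus lay several-fold above the highest ESC library of its assay. Dab2 rose by 4.87 ± 0.48 in log2 in total RNA (limma-voom adjusted p = 6.16e-07) and by 4.18 ± 0.51 in nascent RNA (limma-voom adjusted p = 1.14e-05). These changes exceeded those of 98.9% and 98.8% of all genes tested. The pooled reads gave ratios of 21.8 (14.4 to 34.5) and 19.3 (11.7 to 34.3). ESC total replicate 3 carried 15 of the 24 ESC total reads and replicate 1 carried 2. Without both ESC replicate 3 libraries the total change was 5.52 (limma-voom adjusted p = 5.23e-09), and without ESC total replicate 1 it was 4.08 (limma-voom adjusted p = 2.33e-06).

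Sparc (chromosome 11, 55394500 to 55423183, minus strand) encodes a secreted, calcium-binding matrix glycoprotein that parietal endoderm makes in abundance and that many other cells make too. It was the 1 member expressed strongly in both cell types. Total RNA measured 311.3, 309.7 and 464.4 CPM in ESCs and 203.6, 188.4 and 202.8 in EpiLCs, every EpiLC library below every ESC library. Nascent RNA measured 82.2, 93.6 and 110.6 CPM in ESCs and 107.7, 95.8 and 81.6 in EpiLCs, with the groups spread over the same range. Its total RNA change of -0.83 ± 0.14 passed the adjusted p (limma-voom adjusted p = 0.000113) and not the fold threshold, and its nascent change was 0.01 ± 0.18 (limma-voom adjusted p = 0.965). Without both ESC replicate 3 libraries the total change was -0.66 ± 0.07 (limma-voom adjusted p = 3.45e-08).

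**Figure D2:**
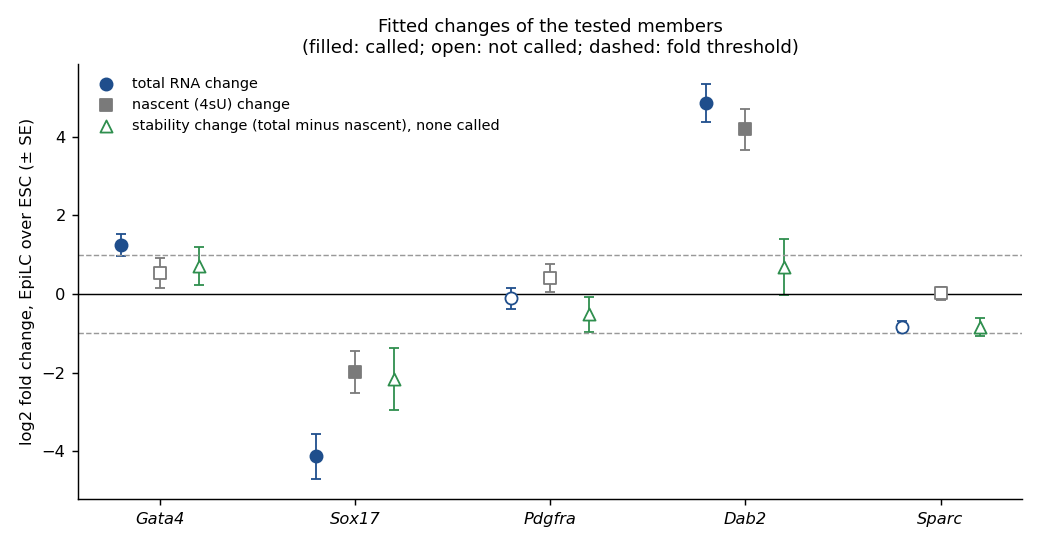
Log2 fold change, EpiLC over ESC (vertical axis, with SE from limma-voom), of the 5 tested members in total RNA, in nascent RNA and in their difference, the stability change; filled symbols were called. Dab2 (4.87 and 4.18) and Sox17 (-4.13 and -1.98) lie beyond the dashed fold threshold in both assays, Gata4 in total RNA with 1.24, and no stability change was called.

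The stability change of a gene is its total RNA change minus its nascent change, tested as the interaction of cell type and assay. No member was called in either direction, where 1.54% of all genes were called, 182 (1.24%) higher and 45 (0.305%) lower (132 and 66 with median-of-ratios scaling; 438 and 90 with a block for the shared extract, read from cell type and number), and 3379 of 14731 genes had an unadjusted p under 0.05. The members' median was -0.52, against 0.11 over all genes. For Sparc, whose total RNA was lower in EpiLCs while its nascent RNA was level, the stability change was -0.84 ± 0.22 (limma-voom adjusted p = 0.0482), short of the fold threshold and below that of all but 2.25% of genes. Across the fits that left out 1 library its value ran from -1.02 to -0.66 and its adjusted p from 0.00901 to 0.11 (limma-voom); it passed both thresholds without ESC 4sU replicate 3 (-1.02), ESC total replicate 1 (-1.01) or EpiLC 4sU replicate 3 (-1.02). With the extract as a block its value was -0.84 ± 0.13 (limma-voom adjusted p = 0.00279), still short of the fold threshold. Without both ESC replicate 3 libraries it was -0.75 ± 0.12 (limma-voom adjusted p = 0.000311), short of it as well. Sox17 had the larger value, -2.16 ± 0.79, with an adjusted p of 0.121 (limma-voom). It was called when limma weighted the libraries by quality (-2.14, limma-voom adjusted p = 0.0382). For Dab2 the difference was 0.68 ± 0.71 (limma-voom adjusted p = 0.613), for Gata4 0.71 ± 0.48 and for Pdgfra -0.52 ± 0.44.

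Within a cell type, the ratio of total to 4sU RNA gives a relative stability, since each library is scaled to its own composition. Sparc had the highest ratio of the 7 genes in both cell types: by library number, log2 of total over 4sU was 1.92, 1.73 and 2.07 in ESCs and 0.92, 0.97 and 1.31 in EpiLCs. The ESC values all lay above the EpiLC values. In the fit the ratio was 1.90 ± 0.15 in ESCs, higher than that of 93.3% of genes, and 1.06 ± 0.16 in EpiLCs, higher than that of 76.8%. The other 6 genes had mean ratios below 0 in both cell types. Sox17 fitted at -1.22 ± 0.35 in ESCs and -3.38 ± 0.71 in EpiLCs, and Dab2 at -1.65 ± 0.67 and -0.97 ± 0.22. The spread was wide where reads were few: in ESCs Dab2 ran from -3.40 (number 1) to 0.03 (number 3). Libraries of a cell type and number are taken here as parts of a single extract, whose division the labels describe without naming the numbers.

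**Figure D3:**
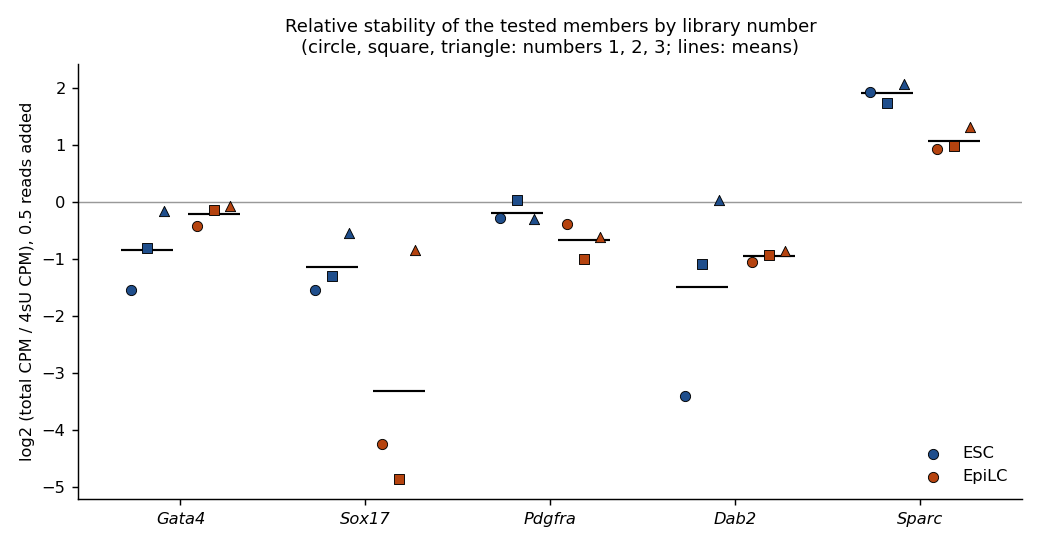
Log2 of total over 4sU CPM (vertical axis, 0.5 reads added to each count) for the 5 tested members, one symbol per library number, in ESCs and EpiLCs. Sparc lies at 1.73 to 2.07 in ESCs and at 0.92 to 1.31 in EpiLCs, while Gata4, Sox17 and Dab2 have means below 0.

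Per length, in CPM per kilobase of gene model (RPKM, TMM-scaled), Sparc stood far above the others in every group: 133.0 ± 32.7 (SD, n = 3) in ESC total and 72.9 ± 3.15 in EpiLC total RNA, and 35.1 ± 5.26 and 34.9 ± 4.8 in nascent RNA. In ESC total RNA it was followed by Gata4 (0.787 ± 0.491), Sox17 (0.399 ± 0.133), Pdgfra (0.259 ± 0.0534), Dab2 (0.146 ± 0.163), Gata6 (0.143 ± 0.0715) and Sox7 (0.0201 ± 0.0174). In that order Gata4 overlapped Sox17, Pdgfra overlapped Dab2 and Dab2 overlapped Gata6, library by library. In EpiLC total RNA Dab2 (2.5 ± 0.236) and Gata4 (1.51 ± 0.146) came next to Sparc, each apart from its neighbours, and Pdgfra (0.243 ± 0.0761), Sox7 (0.103 ± 0.124), Gata6 (0.0527 ± 0.0354) and Sox17 (0.0162 ± 0.028) overlapped in turn. Sox17 thus held the third place in ESCs and the last in EpiLCs. In nascent RNA of ESCs the order was Sparc, Gata4 (1.25), Sox17 (0.843), Gata6 (0.649), Pdgfra (0.286), Dab2 (0.262) and Sox7 (0.243), where the first 5 were apart from each other and the last 3 overlapped in turn. In nascent RNA of EpiLCs it was Sparc, Dab2 (4.86), Gata4 (1.75), Sox7 (0.516), Pdgfra (0.374), Sox17 (0.204) and Gata6 (0.158), where the last 4 overlapped in turn. Among the 32144 genes with a read, Sparc ranked above 98.2% in ESC total RNA, Gata4 above 58% and Gata6 above 40.9%; in EpiLC total RNA Dab2 ranked above 66.5% and Sox17 above 21.4%. Any sum over the 7 genes is a measure of Sparc, which made up 97.9% ± 0.458 (SD, n = 3) of their CPM in ESC total RNA and 91.1% ± 0.621 in EpiLC total RNA.

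**Figure D4:**
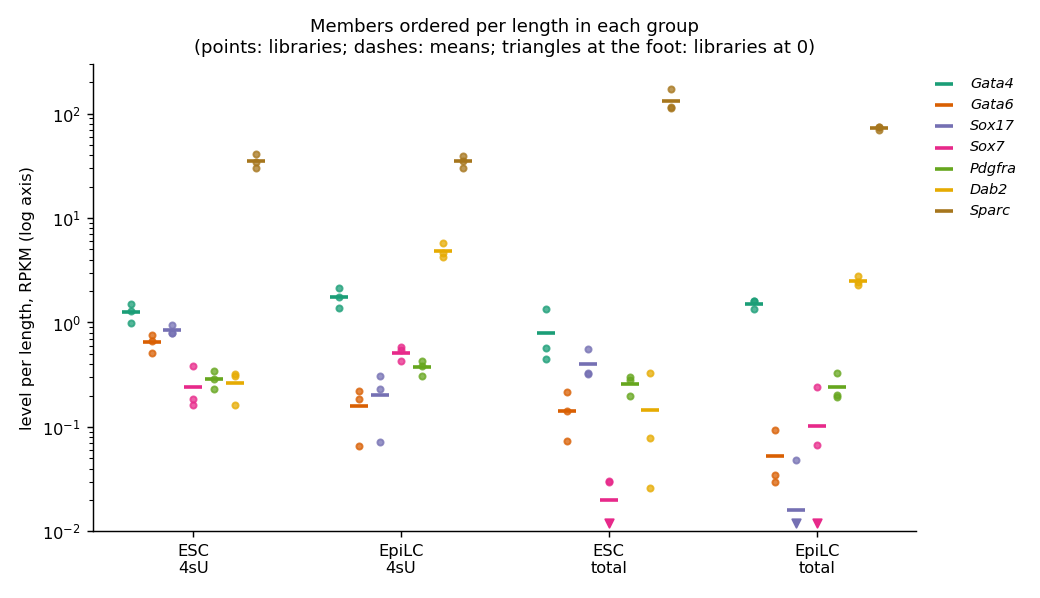
RPKM (vertical axis, log scale) of the 7 genes in each group; points are libraries, dashes their means, and triangles at the foot mark libraries at 0. Sparc lies at 34.9 to 133.0 on average and the other 6 genes at 4.86 or below.

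The members also differed in which genes followed a like course. Over the 12 libraries, Pearson's r of log2 CPM with the other tested genes, given as a description since the points share groups and assays, was highest for Otx2 (0.990), Slc4a4 (0.989) and Camk2d (0.988) in the case of Dab2, for Frs3 (0.972), Ppp1r13b (0.965) and Sgk1 (0.963) in that of Sox17, and for Haus8 (0.992), Zfp598 (0.985) and Elovl5 (0.985) in that of Sparc. Gata4 was nearest to Iqsec2 (0.959), Slc22a21 (0.950) and Bhlhe22 (0.947), and Pdgfra to Slc3a1 (0.836), Cacnb1 (0.826) and Mapk7 (0.814). No other member stood among these, but they are only the few highest of all genes tested, so this absence says little. Genes with r over 0.9 numbered 631 for Dab2, 1520 for Sparc, 229 for Sox17, 16 for Gata4 and 0 for Pdgfra. The genes named for Dab2, Sparc and Sox17 are thus the top of long lists and do not single out partners. Between members r ran from -0.62 (Sox17 with Dab2) to 0.83 (Gata4 with Dab2). Sox17 and Dab2 had passed the filter through opposite cell types, which bears on the lowest of these values.

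Genes that act beside the members were taken from lists. Some genes named here and below reached 3 CPM only in EpiLC libraries (Pth1r, T, Mixl1, Krt7, Pax6, Col1a2 and Dcn). Others reached it only in ESC libraries (Hnf4a, Prdm14, Ascl2 and Pdgfrb). Each of these had to be high in that cell type to be tested at all. Of 6 other transcription factors of extraembryonic endoderm, 2 were tested and both fell in both assays. Hnf4a, a visceral endoderm factor that passed the filter through its ESC libraries, had 193 reads in ESC and 0 in EpiLC total RNA. Its total RNA was at least 32.4-fold lower in EpiLCs (end of the exact interval of the pooled reads). Hhex fell by 1.48 in log2 in total and by 1.57 in nascent RNA (limma-voom adjusted p = 0.000215 and 3.45e-05). Foxq1 of the same list, under the filter, stood the other way, with every EpiLC library above every ESC library (ratio of pooled reads 3.2, 1.8 to 5.87, in total RNA and 2.55, 1.43 to 4.73, in nascent RNA), and it was called higher in both assays in each alternative with a lower filter or none. Of 9 visceral endoderm products and receptors, 2 were tested, and they moved apart. Lrp2, which encodes megalin, a receptor that DAB2 serves, rose by 4.24 ± 0.25 in total RNA (limma-voom adjusted p = 2.67e-09) and by 3.76 ± 0.33 in nascent RNA, and Apoa2, an apolipoprotein, fell by 2.09 in total RNA (limma-voom adjusted p = 0.000321). Afp had 0 reads in all 12 libraries and Ttr at most 4 in any group, both products that define visceral endoderm. Of 11 parietal endoderm and basement membrane genes, the setting in which Sparc is known, 9 were tested: 5 rose and 3 fell in total RNA, and 5 rose and 3 fell in nascent RNA, with median log2 changes of 1.31 and 1.15. Pth1r, a hormone receptor of parietal endoderm, rose by 3.96, while Nid1 and Lama1 fell by 3.73 and 3.57 in total RNA. The basement membrane genes split: Lamc1 fell too, by 1.69, whereas Lamb1, Col4a1 and Col4a2 each rose by 1.71.

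The FGF and ERK axis, which drives the fate in the embryo and which the MEK inhibitor of 2i blocks in ESCs, had 9 genes, all tested. In total RNA 3 rose and 1 fell, with a median of 0.08: the ERK phosphatase gene Dusp6 rose by 3.79 ± 0.34 (limma-voom adjusted p = 2.37e-07), the receptor gene Fgfr2 by 2.84 ± 0.25 (limma-voom adjusted p = 1.54e-07), and the ligand gene Fgf4 fell by 1.89. In nascent RNA 2 rose and 1 fell. Spry2 (-0.16 in total RNA), Spry4 (0.10), Etv4 (-0.58), Etv5 (0.08) and Grb2 (-0.26) were called in neither assay. Dusp6 was low in both ESC replicate 3 libraries, and its total change ran from 3.42 to 4.06 over the fits that left out a library. Spry4 was low there too, with 234, 292 and 29 reads in ESC total replicates 1, 2 and 3 and 478, 593 and 66 in the ESC 4sU libraries. Of the 8 epiblast and naive factors, 7 fell in both assays, with medians of -4.89 and -4.88; Klf4 fell by 6.63 and Esrrb fell by 5.95 in total RNA, and Prdm14 went from 1935 reads in ESC to 1 in EpiLC total RNA (EpiLC to ESC ratio 0.000826, exact 95% interval 2.09e-05 to 0.00461).

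Markers of other cell types were read beside the members. Of 8 primitive streak and definitive endoderm markers, the other tissues that use Sox17, 4 were tested: T (2.35) and Mixl1 (2.51) rose in total RNA, and in nascent RNA T rose (4.24) and Cxcr4 fell by 1.11. Gsc, under the filter, stood the other way in total RNA, with every EpiLC library below every ESC library. It went from 171 reads to 29 (ratio 0.271, 0.176 to 0.404), and its nascent libraries overlapped. Lhx1, also under the filter, went from 0 reads in ESC to 6 in EpiLC total RNA. Without both ESC replicate 3 libraries, which had 2 and 0 reads of T, the changes of T were 1.56 and 3.23. Cxcr4 lost its call in 5 of 25 alternatives (with ESC 4sU replicate 2 left out it was -0.80, limma-voom adjusted p = 0.119), and the number of these markers called higher in nascent RNA ran from 1 to 4, with Mixl1 at 1.00 and Eomes at 0.97 just under the fold threshold. Of 7 trophoblast markers 4 were tested, and in total RNA Krt7 rose (2.15) while Gata2 fell by 1.12 and Ascl2 by 2.04; Gata2 and Ascl2 fell in nascent RNA too, but Gata2 lost its call when ESC total replicate 1 (-0.89 in total RNA) or EpiLC 4sU replicate 3 (-0.96 in nascent RNA) was left out. Of 5 neural markers 4 were tested, and Pax6 (5.41) and Nes (3.16) rose in total RNA, both with Sox1 (1.04) in nascent RNA, where Sox1 lost its call with edgeR (0.99) and without ESC 4sU replicate 1 (0.82) or EpiLC 4sU replicate 2 (0.89). Tubb3, also tested, stood the other way without being called (-0.27 in total and -0.88 in nascent RNA). In both assays its EpiLC libraries all lay below its ESC libraries. Of 9 fibroblast markers, a cell type that expresses Pdgfra and Sparc, 4 were tested, and Col1a2 rose by 4.57 and Pdgfrb fell by 1.97 in total RNA. Dcn, with 0 reads in ESCs and 143 in EpiLC total RNA, was at least 61.2-fold higher there (end of the exact interval of the pooled reads). The summed level of all 9 fibroblast markers was 11.3 to 15.5 CPM in ESC total RNA and 16.3 to 20.8 in EpiLC total RNA, and Fap was at 0 in both. The visceral list summed to 72.5 to 152.3 CPM in ESC and to 1332.6 to 1446.1 in EpiLC total RNA, of which Lrp2 alone averaged 83.7 and 1386.5. The part of other cell types in the members' changes was not tested.

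**Figure D5:**
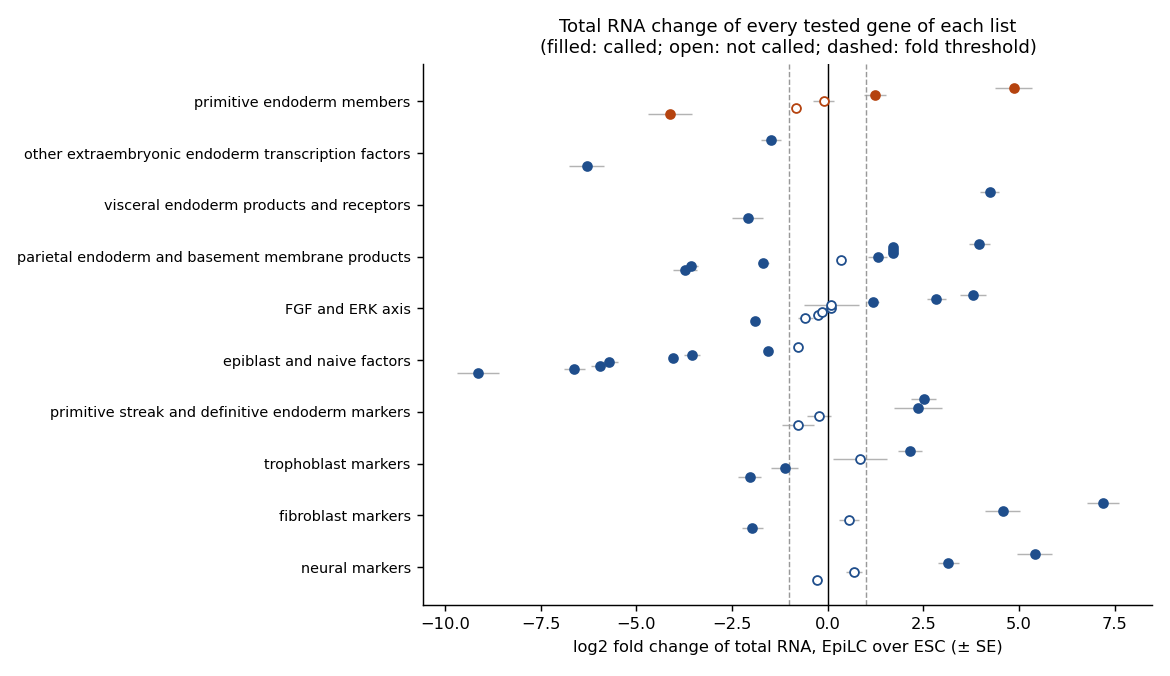
Total RNA log2 fold change, EpiLC over ESC (horizontal axis, with SE from limma-voom), of every tested gene of the 10 lists; filled points were called and dashed lines mark the fold threshold. The members spread from -4.13 to 4.87, whereas 7 of the 8 epiblast and naive factors lie beyond -1.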

How the data were processed

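RNA was measured in 12 libraries (4sU and total RNA of ESCs and EpiLCs, 3 each, grouped by the labels). The authors deposited raw read counts per gene in 1 table: single-end 50 bp stranded reads were trimmed with cutadapt 1.14, aligned to mm10 with STAR 2.5.3a keeping unique positions, and counted on the sense strand over GENCODE M14 exons, without ribosomal RNA genes, with featureCounts 1.5.3 (tool names and versions per the submitters' processing notes). Unique alignment leaves out reads shared with near-identical copies. The 92 spike-in entries had 0 reads and gave no absolute scale. Of 51467 gene IDs, 51274 (99.6%) were paired with symbols through GENCODE M21.

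The 14731 genes that reached 3 CPM (library totals, before TMM) in 3 or more libraries were fitted with limma-voom on cell type and assay in all 12 libraries, after the study's methods (R 4.3.3, with limma 3.58.1 and TMM from edgeR 4.0.16), with Benjamini-Hochberg adjustment over all genes tested. Every adjusted p comes from this fit unless another tool or setting is named beside it. Where a setting is named, the p comes from the fit under that setting and is adjusted over the genes tested there. Level changes below the filter are ratios of pooled reads with exact 95% intervals, which cover counting error only since reads carry no molecular identifiers. Where a group had 0 reads, the bound is the end of that interval. The fits were tested on simulated data. By the labels each extract was split into 4sU and total RNA; deviations of such same-numbered libraries from their group means correlated in ESCs (r 0.213 to 0.462) and hardly in EpiLCs (0.023 to 0.0916), and numbers did not pair cell types (-0.128 to -0.00589). The extract block was an alternative. Alternatives were other scalings and filters, edgeR's quasi-likelihood test, DESeq2 1.42.0, library quality weights, the adjusted p alone, a replicate block, each assay alone, each library left out and both ESC replicate 3 libraries left out; the last of these with no filter was added after the data had been seen. Python 3.11.15, pandas 2.3.3 and scipy 1.17.1 were used.

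The members and the lists were chosen with earlier results of these data known. Beside the members, each list names every called gene where a contrast called 3 or fewer, and otherwise the 3 with the largest total RNA change; for each tested member the 3 genes with the highest r are named (log2 CPM, prior count 2). Promoter sequences are RefSeq's for GRCm38.p6. No protein sequences were compared here.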

Additional observations from a re-analysis of the deposited data

Results flagged for a closer look

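In 3 genes of the lists, and in no member, the interaction of cell type and assay was called, so that the changes in total and in nascent RNA differed by a test of the difference itself; Sparc (-0.84) and the laminin gene Lamb1 (-0.59, limma-voom adjusted p = 0.0256) passed the adjusted p and not the fold threshold. Serpinh1, a collagen chaperone made in parietal endoderm, had a nascent change of 1.38 and a total change of 0.34, an interaction of -1.03 (limma-voom adjusted p = 0.00566). Pou5f1, which encodes OCT4, had a nascent change of 0.28 and a total change of -0.77, an interaction of -1.05 (limma-voom adjusted p = 0.00256). Both calls sat near the fold threshold: Pou5f1 fell short of it in 4 of 25 alternatives (down to -0.88, without both ESC replicate 3 libraries; -0.97 without ESC 4sU replicate 3) and Serpinh1 in 2 (-0.97, with library totals or without EpiLC total replicate 2). Dcn, a matrix proteoglycan gene of fibroblasts, had an interaction of 3.22 (limma-voom adjusted p = 0.015), but 0 reads in all 6 ESC libraries, so that this value depends on the prior count of the fit and is no bound. It was not called by edgeR (1.55).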

How the results depend on the processing

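Dab2 was called higher in both assays under every setting that was run (total change 4.08 to 5.53 over the fits that left out a library; Sox17 had the larger total change with DESeq2, -4.59 against 4.30, with edgeR without a filter, -4.34 against 4.29, and without ESC total replicate 1, -4.25 against 4.08), and Sox17 lower under every setting in which it was tested. Sox17 was not tested with both ESC replicate 3 libraries left out or in total RNA with only the 6 libraries of the assay, so that 0 members were called lower there, in total RNA and, without ESC replicate 3, in nascent RNA. Leaving out 1 library gave 1 to 2 members higher and 0 to 1 lower in total RNA, 0 to 1 lower in nascent RNA and 0 to 1 lower in stability. Gata4 in total RNA fell short of the fold threshold with DESeq2 (0.96, so that 1 member was higher) and with edgeR without a filter (0.96), and ran from 0.92 to 1.56 over the fits that left out a library. In nascent RNA, 2 members were lower with no filter, with a filter at 0.5 CPM, with edgeR without a filter and with no filter and both ESC replicate 3 libraries left out, since Gata6 was then tested. By the adjusted p alone Sparc was lower in total RNA (-0.83, so that 2 members were lower) and in stability (-0.84, 1 member). Quality weights also gave 1 member lower in stability (Sox17, -2.14), as did no filter with both ESC replicate 3 libraries left out (Sparc, -1.02).

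The direction of small values turned. The stability change of Dab2 was -0.0027 with DESeq2 and ran from -0.17 (without ESC total replicate 1) to 1.35 over the fits that left out a library; in those fits the total change of Pdgfra ran from -0.33 to 0.05, and for Sparc the nascent change from -0.11 to 0.18 and the stability change from -1.02 to -0.66. The total over 4sU ratio of Pdgfra in ESCs, -0.18 as reported, was 0.04 with no filter, 0.02 with the filter at 0.5 CPM, 0.09 with edgeR without a filter and 0.25 with no filter and both ESC replicate 3 libraries left out. The cause was not tested.

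Over all genes, the total RNA counts (2407 higher, 1652 lower) were 4241 and 2866 with no filter and 4624 and 4729 by the adjusted p alone; the lower count was 2500 with the filter at 0.5 CPM and 2757 with edgeR without a filter, settings that tested more genes. The nascent counts (1756 higher, 1995 lower) became 2848 higher with no filter, 2683 with the filter at 0.5 CPM, and 3485 higher and 4246 lower by the adjusted p alone. The stability counts (182 higher, 45 lower) moved most: 97 and 82 with no filter, 100 and 82 with the filter at 0.5 CPM, 280 and 118 with edgeR without a filter, 738 and 108 with quality weights, 401 and 277 by the adjusted p alone, and 680 and 99 without the ESC replicate 3 libraries; the lower count was 28 with library totals and 81 with DESeq2. With no filter and both ESC replicate 3 libraries left out, the counts were 4289 and 3340 in total RNA, 3212 and 2814 in nascent RNA and 453 and 423 in stability. Leaving out 1 library gave 39 to 572 stability calls higher and 21 to 86 lower.

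A replicate block on the number gave 281 and 73 stability calls, and a replicate block on the extract (cell type and number) 438 and 90; no call of a member in total RNA, nascent RNA or stability changed under either block that could be fitted. Depth limits Gata6, Sox7 and Sox17, which had at most 12, 9 and 26 reads in a library.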

Other observations

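Beside Dab2 and Lrp2, the genes for cubilin and amnionless, partners in the endocytic receptor of visceral endoderm, lay higher in EpiLC total RNA, although neither passed the filter, which used CPM before the TMM adjustment. They were picked out after their values had been seen. Cubn had 7 reads in the ESC total libraries and 22 in the EpiLC total libraries, a ratio of 5.03 after scaling to library size (exact 95% interval 2.07 to 13.9), and Amn had 74 and 125, a ratio of 2.7 (2.01 to 3.65). For both, every EpiLC total library lay above every ESC total library. Over all tested genes, the libraries of the cell types lay apart in one direction or the other for 68.6% in total RNA. The exact permutation p was 0.1 for each, the smallest possible with 3 against 3, and is no test of genes picked by their values. In nascent RNA the libraries overlapped, with ratios of 2.87 (0.47 to 30.2) and 1.84 (0.784 to 4.53). Of the secreted products under the filter, Rbp4 had a ratio of 1.22 in total RNA (0.844 to 1.76), with overlapping libraries. Apoa1 had a ratio of 0.145 in total RNA (0.00338 to 1, overlapping libraries) and of 2.3 in nascent RNA (0.329 to 25.4), on at most 11 reads in a group. Srgn, a proteoglycan gene of the parietal list, went from 85 reads to 4 (ratio 0.0753, 0.02 to 0.2), every EpiLC total library below every ESC total library.

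In the ESC replicate 3 libraries the streak gene T was low as well: it had 44 and 45 reads in ESC total replicates 1 and 2 and 2 in replicate 3, and 9, 6 and 0 in the ESC 4sU libraries.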
